A study of Homo sapiens with 12 samples.

Results

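Histones are the proteins that package DNA into nucleosomes, and their genes fall into a pair of classes. The replication-type genes lie mostly in clusters, are read when DNA is copied in S phase, and give mRNAs that end in a stem-loop bound by SLBP instead of a poly(A) tail. The replacement genes (H2A.Z, H2A.X, H3.3, macroH2A and the linker H1.10) lie apart from the clusters, give polyadenylated mRNAs and are read through the cell cycle, and H2AX, counted with them here, also rises in S phase. Some clustered genes are known to give longer, polyadenylated transcripts as well.

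Histone genes were followed in RCC4, a cell line established from human clear cell kidney cancer, on Affymetrix human expression arrays. The 12 arrays form 4 groups of 3 biological replicates: siMESH1+siATF4 (both genes silenced together), siMESH1 (a single siRNA against MESH1, the cytosolic NADPH phosphatase encoded by HDDC3), siATF4 (a pool of siRNAs against ATF4, the transcription factor of the integrated stress response) and siNT (a non-targeting siRNA). Cells of every group, controls included, received 40 pmol of siRNA with a lipid reagent and were collected after 72 h, and how the 40 pmol was divided between both siRNAs is not given in the sources used here. RNA was amplified with a kit that primes on poly(A) tails, which disfavours tail-less histone transcripts, and the share of each form in a value was not tested. Values are log2 signals with the siNT mean of each probe set subtracted, so they hold differences and no level, and neither the levels of different genes nor the presence of renal markers can be read from them.

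A gene was a member when a probe set named it alone and its current or older symbol began as a clustered histone gene, H1-10, H2AX, H2AZ, H3-3 or MACROH2A. The rule found 48 of 11963 genes on the arrays, read by 57 probe sets, of which 41 were replication-type (6 H1, 8 H2A, 12 H2B, 7 H3 and 8 H4 genes) and 7 were replacement genes. Several probe sets were averaged for 5 members, and 43 had a single probe set. H3-3B by itself is not analysed here. A gene was called when its Benjamini-Hochberg adjusted p over all 11963 genes in limma was under 0.05 and it changed by at least 0.5 on the log2 scale. HDDC3 itself is not analysed here, so MESH1 silencing was not checked. ATF4 mRNA was at -2.27, -2.46 and -2.23 in siMESH1+siATF4 cells and -2.29, -2.33 and -2.30 in siATF4 cells, against -0.10, 0.003 and 0.10 in siNT cells, so the ATF4 silencing showed on every array that carried it. The 14 measured markers of leukocytes, endothelium and fibroblasts gave 0 calls in limma in the comparisons with siNT (2, 1 and 4 of them at an unadjusted p under 0.05 in siMESH1+siATF4, siMESH1 and siATF4), with changes from -0.34 to 0.31, and the array medians over all genes lay between -0.0102 and 0.0301. Of 10 measured markers of renal carcinoma cells, KRT18 was called higher and CA12 and NDRG1 lower in siMESH1+siATF4 (0.63, -0.76 and -0.67), CA12 and KRT18 lower in siMESH1 (-1.61 and -0.54), and EPCAM higher in siATF4 (0.60), and their part in any histone value was not tested.

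In the comparisons with siNT, the few replication-type genes that were called were higher and the replacement genes that were called were lower. In siMESH1 against siNT, 5 of 41 replication-type genes (12.2%) were called higher and 0 lower (7 higher and 0 lower at the adjusted p alone), whereas 0 of 7 replacement genes were called higher and 2 (28.6%) lower (4 lower at the adjusted p alone), where 2.82% of all genes were called higher and 5.37% lower. In siATF4 against siNT, 1 replication-type gene (2.44%) was called higher and 0 lower, and 0 replacement genes were called higher and 2 lower, beside 2.49% and 4.03% of all genes, so the replication-type share there was that of the background. In siMESH1+siATF4 against siNT, 3 replication-type genes were called higher and 0 lower, and 0 replacement genes were called higher and 3 lower, beside 4.4% and 5.25% of all genes. At an unadjusted p under 0.05, 8, 9 and 10 replication-type and 5, 4 and 5 replacement genes passed in siMESH1+siATF4, siMESH1 and siATF4. The genes that carried the calls were H2BC12, H2BC12L, H2AC6, H2BC5 and H2BC21 among the replication-type genes, and H2AZ1, H2AZ2, H2AX and MACROH2A1 among the replacement genes. Of the 5 replication-type genes, all but H2BC12 have only probe sets that may bind related transcripts. Without such probe sets, 1 of 30 replication-type genes was called higher in siMESH1 and 1 of 4 replacement genes lower. Of all 8369 genes then tested, 234 were called higher and 463 lower.

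**Figure D1:**
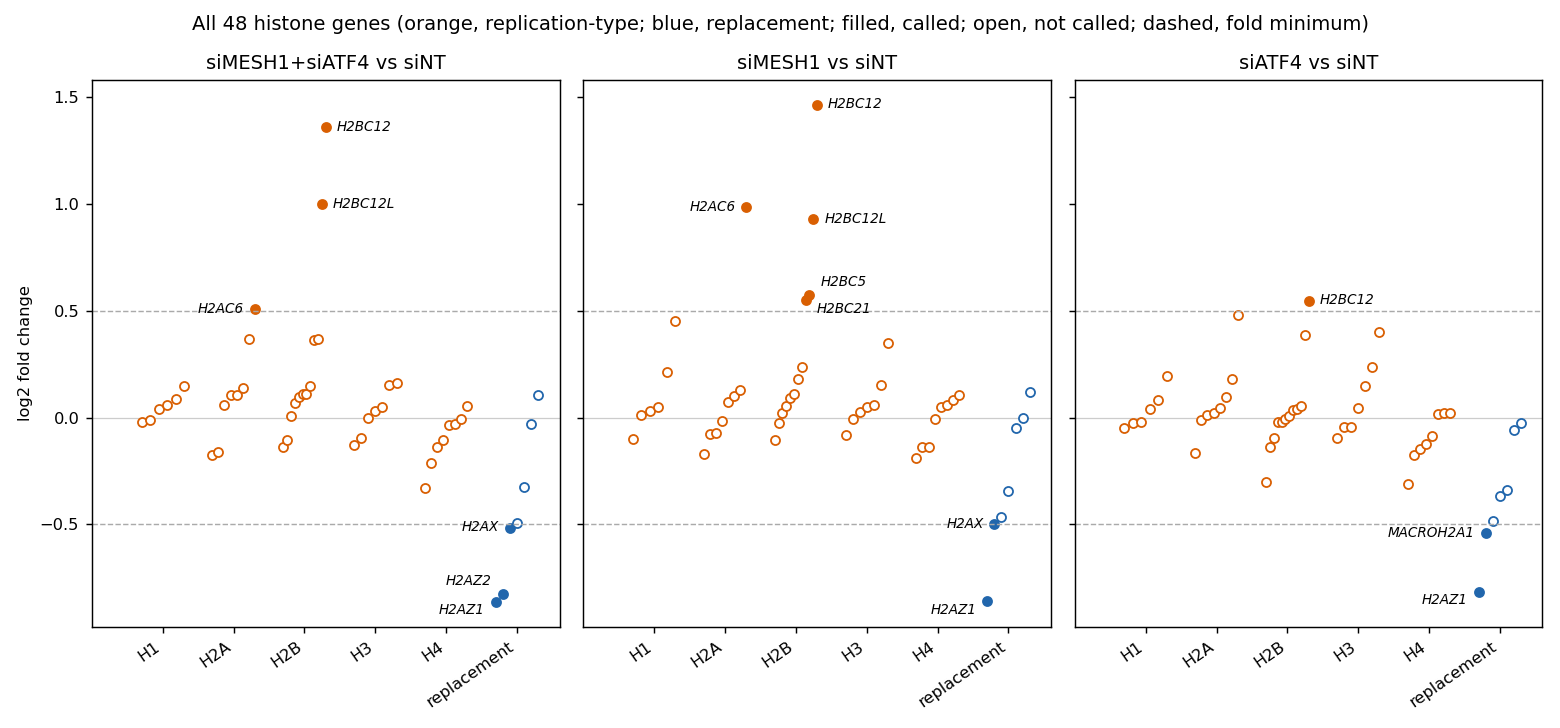
Log2 fold change of each of the 48 histone genes in siMESH1+siATF4, siMESH1 and siATF4 cells against siNT, by family of the replication-type genes (orange) and for the replacement genes (blue). Filled points were called, open points were not, and dashed lines mark a change of 0.5. Most replication-type genes lie near 0 while H2BC12 stands highest in each panel and H2AZ1 lowest.

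The median of the replication-type class stayed near that of all genes. Against siNT its median change was 0.05 for siMESH1+siATF4, 0.06 for siMESH1 and 0.01 for siATF4, beside 0.01, 0.03 and 0.02 for all genes. The 36 replication-type genes called in none of the 7 comparisons ranged from -0.19 to 0.45 in siMESH1, -0.31 to 0.48 in siATF4 and -0.33 to 0.37 in siMESH1+siATF4. They were picked for not being called, so these ranges are narrow partly by that choice. The ranges also hold genes that passed the adjusted p alone, such as H1-2 at 0.45 in siMESH1 and H2AC25 at 0.48 in siATF4. The replacement medians were -0.34, -0.37 and -0.49 for siMESH1, siATF4 and siMESH1+siATF4, and 6, 7 and 6 of the 7 genes had a value below 0. The replacement medians depended on scaling and probe sets: with arrays centred on housekeeping genes they were -0.0127, -0.22 and -0.27, and over the 4 replacement genes left without probe sets that may bind related transcripts they were -0.0225, -0.29 and -0.26. Of the 11 measured housekeeping genes, 3, 2 and 1 were themselves called lower in siMESH1, siATF4 and siMESH1+siATF4, and 0 higher. The medians of the members are descriptions, since genes of a class are not replicates.

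The class medians also stood apart array by array. The replication-type median minus the replacement median was 0.49, 0.62 and 0.33 on the siMESH1+siATF4 arrays, 0.41, 0.33 and 0.46 on the siMESH1 arrays and 0.43, 0.30 and 0.38 on the siATF4 arrays, against 0.03, -0.06 and 0.03 on the siNT arrays. Every silenced array lay above every siNT array. The siNT distances lie near 0 by construction, since the siNT mean of each probe set was subtracted. Probe sets bear on the distance. Over the 4 replacement genes left without those that may bind related transcripts, the replacement median in siMESH1 was -0.0225. Scaling leaves the distance as it is but decides which class carries it. As deposited, the replacement medians ran from -0.56 to -0.30 on the 9 silenced arrays while those of the replication-type class ran from -0.02 to 0.12. With housekeeping centring the median change in siMESH1 against siNT was 0.39 for the replication-type class and -0.0127 for the replacement class. These are bulk arrays, so a change in the share of cells in a phase of the cycle and a change of RNA per cell cannot be told apart.

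**Figure D2:**
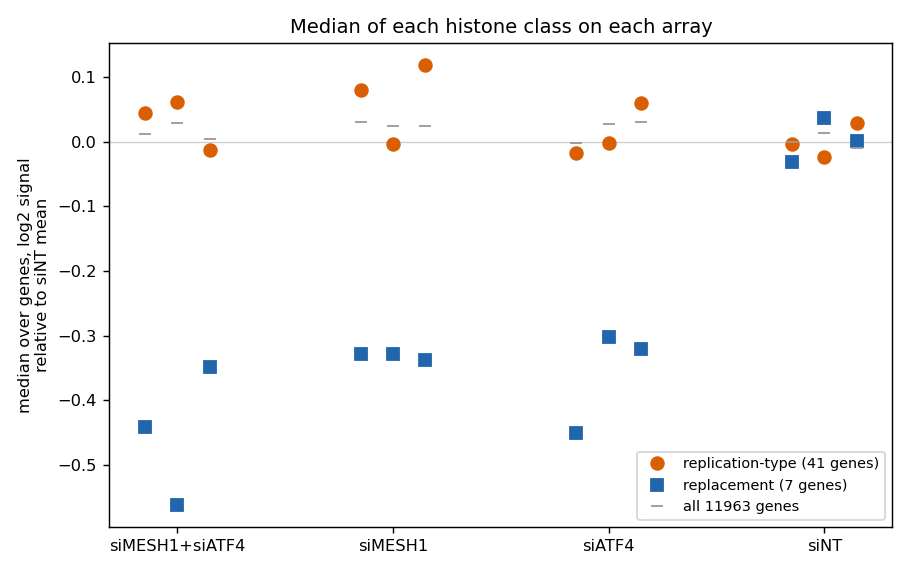
Median relative log2 signal of the 41 replication-type genes (circles), the 7 replacement genes (squares) and all 11963 genes (dashes) on each of the 12 arrays, by siRNA group. The squares lie between -0.56 and -0.30 on the silenced arrays and within 0.04 of 0 on the siNT arrays, while the circles stay near the dashes.

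H2BC12, which encodes a core H2B, rose most among the histone genes. Its relative log2 signal was 1.43, 1.33 and 1.32 on the siMESH1+siATF4 arrays, 1.42, 1.45 and 1.51 on the siMESH1 arrays and 0.41, 0.59 and 0.63 on the siATF4 arrays, against -0.01, -0.02 and 0.02 on the siNT arrays. No siNT array reached the lowest silenced array. The change against siNT was 1.36 ± 0.0606 (SE, adjusted p = 2.8e-09) in siMESH1+siATF4, 1.46 ± 0.0606 (SE, adjusted p = 2.2e-09) or 2.76-fold in siMESH1, and 0.55 ± 0.0606 (SE, adjusted p = 1.9e-05) in siATF4. Adding siMESH1 to siATF4 raised H2BC12 by 0.81 ± 0.0606 (SE, adjusted p = 5.1e-06), while adding siATF4 to siMESH1 changed it by -0.10 ± 0.0606 (SE, adjusted p = 0.24), which did not pass the test. The change from MESH1 silencing was smaller in ATF4-silenced cells than in siNT cells, with an interaction of -0.65 ± 0.0857 (SE, adjusted p = 0.00029).

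H2BC12L, a near copy of H2BC12 on chromosome 21, gave 1.02, 1.03 and 0.94 in siMESH1+siATF4 cells, 0.99, 0.84 and 0.95 in siMESH1 cells and 0.24, 0.48 and 0.44 in siATF4 cells, against -0.004, 0.32 and -0.32 in siNT cells. The siNT arrays were spread widely and the siATF4 arrays overlapped them. The changes of 1.00 ± 0.125 (SE, adjusted p = 3.4e-05) in siMESH1+siATF4 and 0.93 ± 0.125 (SE, adjusted p = 7.8e-05) in siMESH1 were called, whereas 0.38 ± 0.125 (SE, adjusted p = 0.036) in siATF4 fell under the fold minimum. Its only probe set is of the type that can bind related transcripts, so signal from H2BC12 and H2BC12L cannot be told apart there.

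H2AC6, a core H2A gene, rose in both groups that received siMESH1. It read 0.53, 0.46 and 0.53 on the siMESH1+siATF4 arrays, 0.94, 0.97 and 1.05 on the siMESH1 arrays and 0.10, 0.01 and -0.08 on the siATF4 arrays, against 0.10, 0.01 and -0.11 on the siNT arrays. The siMESH1 arrays lay above all others, the siMESH1+siATF4 arrays came next, and siATF4 and siNT overlapped. The only probe set of H2AC6 is of a type that may bind related transcripts, whose part in the signal was not tested. The change was 0.51 ± 0.0645 (SE, adjusted p = 4.1e-05) in siMESH1+siATF4 and 0.98 ± 0.0645 (SE, adjusted p = 1.2e-07) in siMESH1 against siNT, and 0.01 ± 0.0645 (SE, adjusted p = 0.92) in siATF4. Between siMESH1+siATF4 and siMESH1 it was -0.48 ± 0.0645 (SE, adjusted p = 0.00011), just under the fold minimum. Its call in siMESH1+siATF4 also rested on the fold minimum: the change was 0.453 without siNT replicate 3, 0.495 without siMESH1+siATF4 replicate 1, 0.496 without siMESH1+siATF4 replicate 3 and 0.492 with arrays centred on their medians.

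H2BC5 and H2BC21, both H2B genes read only by probe sets that may bind related transcripts, rose in siMESH1 cells. H2BC5 read 0.49, 0.40 and 0.21 in siMESH1+siATF4 cells, 0.50, 0.52 and 0.70 in siMESH1 cells and 0.09, -0.09 and 0.12 in siATF4 cells, against -0.10, 0.05 and 0.05 in siNT cells. H2BC21 read 0.23, 0.19 and -0.09 in siMESH1+siATF4 cells, 0.45, 0.79 and 0.40 in siMESH1 cells and -0.13, 0.08 and -0.37 in siATF4 cells, against -0.02, -0.19 and 0.21 in siNT cells. All siMESH1 arrays exceeded all siNT arrays for both genes, and H2BC21 varied more between replicates. The change in siMESH1 was 0.57 ± 0.0859 (SE, adjusted p = 0.00019) for H2BC5. It was 0.55 ± 0.139 (SE, adjusted p = 0.008) for H2BC21. The H2BC21 call was lost at 0.45 without siNT replicate 2 and at 0.43 without siMESH1 replicate 2. Under the methods' own test the H2BC21 call held at the unadjusted threshold. It was lost once a Benjamini-Hochberg adjustment over all genes was added to that test (adjusted p = 0.094). In siMESH1+siATF4 neither was called, at 0.37 ± 0.0859 (SE, adjusted p = 0.0046) for H2BC5 and 0.11 ± 0.139 (SE, adjusted p = 0.61) for H2BC21. The siMESH1+siATF4 against siMESH1 difference was -0.44 ± 0.139 (SE, adjusted p = 0.032) for H2BC21 and -0.21 ± 0.0859 (SE, adjusted p = 0.094) for H2BC5.

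**Figure D3:**
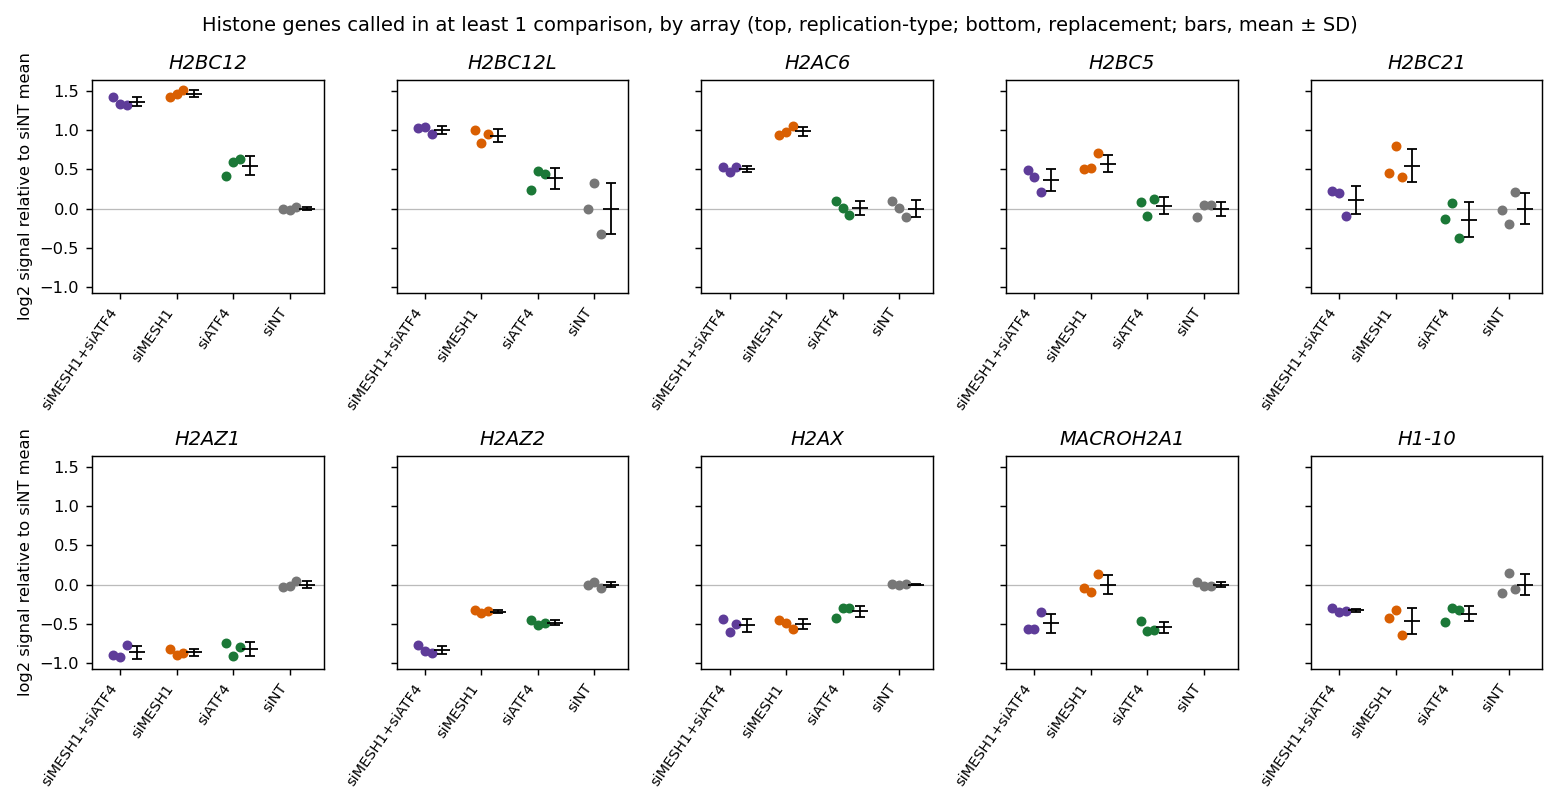
Relative log2 signal of the 10 histone genes called in at least 1 of the 7 comparisons, by array (points), with the mean and SD of each group beside them (bars, n = 3). The upper row holds replication-type genes, with H2BC12 between 1.32 and 1.51 on the arrays that received siMESH1, and the lower row holds replacement genes, with H2AZ1 at or below -0.74 on every silenced array.

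The called replication-type genes were H2A and H2B genes. Among the probe sets that name several genes, outside the members, 1 of 2 for H3 was called higher in siMESH1 (1.12), and 0 of 6 for H4. In both siMESH1+siATF4 and siATF4, 1 of 6 for H4 and 1 of 5 for H2B were called lower, and 1 of 2 for H3 higher. For H2A, 1 of 5 was called higher in siMESH1+siATF4. In siMESH1 against siNT, 4 of 12 H2B genes and 1 of 8 H2A genes were called higher, beside 2.82% of all genes. Of the genes called, H2AC6, H2BC12L, H2BC5 and H2BC21 have only probe sets that may bind related transcripts. The counts were 0 of 6 H1, 0 of 7 H3 and 0 of 8 H4 genes, which families this small cannot tell from that share. No test compared the families. In siMESH1+siATF4, 2 H2B genes and 1 H2A gene were called higher, beside 4.4% of all genes, and in siATF4 1 H2B gene, beside 2.49%. Members of the other families came near the minimum: the linker H1-2 read 0.38, 0.46 and 0.52 on the siMESH1 arrays against -0.12, -0.01 and 0.13 on the siNT arrays, a change of 0.45 ± 0.094 (SE, adjusted p = 0.0022), and 0.08 ± 0.094 (SE, adjusted p = 0.55) in siMESH1+siATF4. H2AC25, an H2A gene on chromosome 1, changed by 0.48 ± 0.0728 (SE, adjusted p = 0.00028) in siATF4 and 0.37 ± 0.0728 (SE, adjusted p = 0.0014) in siMESH1+siATF4, against 0.13 ± 0.0728 (SE, adjusted p = 0.2) in siMESH1. The lowest values of the class in siATF4 and in siMESH1+siATF4 belonged to H4 genes, H4C5 at -0.31 ± 0.102 (SE, adjusted p = 0.037) in siATF4 and H4C13 at -0.33 ± 0.0891 (SE, adjusted p = 0.011) in siMESH1+siATF4.

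Of the 41 replication-type genes, 38 lie on chromosome 6. H2BC12 spans chr6:27138293-27146858 in RefSeq (GRCh38.p14), with H4C9 (chr6:27139282-27139678) inside that span and H2BC11 (chr6:27132316-27132795) beside it. H4C9 read -0.004, -0.16 and -0.24 and H2BC11 0.01, 0.06 and 0.10 on the siMESH1 arrays, against 0.05, -0.01 and -0.05 and 0.10, -0.12 and 0.02 on the siNT arrays. Neither neighbour passed the test, with changes of -0.14 ± 0.0786 (SE, adjusted p = 0.22) for H4C9 and 0.06 ± 0.0958 (SE, adjusted p = 0.72) for H2BC11. RefSeq gives 4 replication-type genes a span over 1000 bp (H2BC12, H2BC5, H2BC21 and H3C6). Of these, 3 were called higher in siMESH1, where 2.82% of all genes were. H3C6, the other one, changed by 0.35 ± 0.1 (SE, adjusted p = 0.016). Of the 37 genes spanning 386 to 797 bp, 2 were called higher, H2AC6 and H2BC12L. A longer span is that of the annotated gene and not a measure of the transcript read here, and no test was made of this split.

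The promoters of 4 of the 5 replication-type genes called higher in siMESH1 are shown beside a neighbour that did not, H2BC11, and a replacement gene, H2AZ1, so that their shared letters can be read against their values. RefSeq promoters (GRCh38.p14) were matched for 45 of the 48 members (H2BC12L, which was called, H3C11 and H4C1 were not matched), from 250 bases before to 50 bases after the annotated start, and the last 150 bases before the start are printed. Capitals mark the histone octamer (ATTTGCAT), the CCAAT box (CCAAT) and the TATA box (TATAAA), searched on both strands with overlaps allowed. The stretches lie at chr6:27146859-27147008, minus strand (H2BC12), chr1:149886683-149886832, minus strand (H2BC21), chr6:26157971-26158120, plus strand (H2BC5), chr6:26124022-26124171, plus strand (H2AC6), chr6:27132796-27132945, minus strand (H2BC11) and chr4:99950276-99950425, minus strand (H2AZ1).
H2BC12: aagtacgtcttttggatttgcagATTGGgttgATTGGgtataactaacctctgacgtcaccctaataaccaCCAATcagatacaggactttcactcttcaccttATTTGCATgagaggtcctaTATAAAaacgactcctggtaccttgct
H2BC21: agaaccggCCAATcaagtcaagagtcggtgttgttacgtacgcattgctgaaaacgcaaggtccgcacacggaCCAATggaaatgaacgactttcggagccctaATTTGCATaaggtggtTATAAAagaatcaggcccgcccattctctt
H2BC5: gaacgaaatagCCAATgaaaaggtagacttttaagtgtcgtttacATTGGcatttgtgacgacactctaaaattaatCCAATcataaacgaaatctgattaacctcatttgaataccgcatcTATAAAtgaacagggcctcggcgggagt
H2AC6: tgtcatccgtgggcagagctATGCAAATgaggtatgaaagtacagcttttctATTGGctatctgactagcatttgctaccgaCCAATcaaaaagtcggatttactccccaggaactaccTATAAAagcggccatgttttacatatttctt
H2BC11: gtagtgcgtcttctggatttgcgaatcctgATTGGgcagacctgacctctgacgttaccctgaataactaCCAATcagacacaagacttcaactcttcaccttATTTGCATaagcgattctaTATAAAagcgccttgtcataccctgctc
H2AZ1: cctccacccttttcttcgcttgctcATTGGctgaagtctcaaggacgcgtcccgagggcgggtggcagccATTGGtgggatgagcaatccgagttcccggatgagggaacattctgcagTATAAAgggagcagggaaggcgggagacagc
H2BC12, H2BC21 and H2BC11 held the octamer shortly before the TATA box, H2AC6 held it on the other strand farther from the start, and H2BC5 and H2AZ1 had no match to the octamer.

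The octamer was found in 14 of 38 replication-type promoters (36.8%) and 0 of 7 replacement promoters, beside 1.8% of 27305 promoters of all genes. It was found in 8 of 11 H2B and 6 of 8 H2A promoters and in 0 of 6 H1, 0 of 6 H3 and 0 of 7 H4 promoters. The CCAAT box was in 33 of the 38 replication-type promoters and 4 of the 7 replacement promoters, beside 35.7% of all, and the TATA box was in 25 and 3 of them, beside 3264 of the 27305. In siMESH1 against siNT, where 2.82% of all genes were called higher, so were 3 of the 14 genes with the octamer. Their median change was 0.08, with a range of -0.08 to 1.46. Of the 24 without it, 1 was called higher (H2BC12L is in neither group), with a median of 0.05 and a range of -0.19 to 0.57. H2BC11 shares the octamer, the CCAAT box and the TATA box with H2BC12 and changed by 0.06 where H2BC12 changed by 1.46, so promoters with the same motifs went with different values. A match is a description of the sequence and not of a bound site.

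H2AZ1, which encodes the H2A.Z variant found at gene starts, was the replacement gene that fell most. In RefSeq (GRCh38.p14) the replacement genes with calls lie apart, H2AZ1 at chr4:99948088-99950275, H2AZ2 at chr7:44826889-44848126, H2AX at chr11:119093874-119095465, MACROH2A1 at chr5:135334381-135399887 and H1-10 at chr3:129314771-129316286. The H2AZ1 relative log2 signal was -0.90, -0.92 and -0.77 on the siMESH1+siATF4 arrays, -0.81, -0.90 and -0.87 on the siMESH1 arrays and -0.74, -0.91 and -0.79 on the siATF4 arrays, against -0.03, -0.02 and 0.05 on the siNT arrays. The 3 silenced groups overlapped one another and none reached siNT. The change was -0.86 ± 0.0593 (SE, adjusted p = 1.5e-07) in siMESH1+siATF4, -0.86 ± 0.0593 (SE, adjusted p = 1.9e-07) in siMESH1 and -0.82 ± 0.0593 (SE, adjusted p = 4.7e-07) in siATF4. Adding MESH1 silencing to siATF4 changed it by -0.05 ± 0.0593 (SE, adjusted p = 0.71), which did not pass the test, and the interaction was 0.81 ± 0.0838 (SE, adjusted p = 4.5e-05). Its pair of probe sets gave -0.87 and -0.86 in siMESH1+siATF4, -0.87 and -0.85 in siMESH1, and -0.83 and -0.80 in siATF4.

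H2AZ2, the gene of the other H2A.Z isoform, was lowest when both genes were silenced. It read -0.77, -0.84 and -0.87 in siMESH1+siATF4 cells, -0.33, -0.36 and -0.34 in siMESH1 cells and -0.45, -0.52 and -0.48 in siATF4 cells, against 0.001, 0.04 and -0.04 in siNT cells. The groups did not overlap, with siMESH1+siATF4 lowest. The change was -0.83 ± 0.0464 (SE, adjusted p = 2.3e-08) in siMESH1+siATF4, which was called. It was -0.34 ± 0.0464 (SE, adjusted p = 8.2e-05) in siMESH1 and -0.48 ± 0.0464 (SE, adjusted p = 5.4e-06) in siATF4, both under the fold minimum. The interaction was closer to 0 than its SE of 0.0656 (adjusted p = 1). Silencing both genes changed it by -0.48 ± 0.0464 (SE, adjusted p = 6.3e-06) relative to siMESH1 and -0.34 ± 0.0464 (SE, adjusted p = 0.00045) relative to siATF4, both under the fold minimum. Its 3 probe sets all fell but to different extents, from -1.35 to -0.54 in siMESH1+siATF4, from -0.61 to -0.17 in siMESH1 and from -0.80 to -0.28 in siATF4.

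H2AX, whose protein marks broken DNA once phosphorylated, read -0.44, -0.61 and -0.50 in siMESH1+siATF4 cells, -0.45, -0.49 and -0.56 in siMESH1 cells and -0.42, -0.30 and -0.30 in siATF4 cells, against 0.01, -0.01 and 0.01 in siNT cells. All silenced arrays were below all siNT arrays. The change was -0.52 ± 0.0576 (SE, adjusted p = 1.3e-05) in siMESH1+siATF4 and -0.50 ± 0.0576 (SE, adjusted p = 2.1e-05) in siMESH1, both called at the edge of the minimum, and -0.34 ± 0.0576 (SE, adjusted p = 0.00063) in siATF4. Its 4 probe sets disagreed: in siMESH1 they gave -0.90, -0.53, -0.51 and -0.06, and the last of them did not pass the test (adjusted p = 0.82). The siMESH1 call was lost without siNT replicate 1 (-0.497), siNT replicate 3 (-0.498) or siMESH1 replicate 3 (-0.47), and the siMESH1+siATF4 call without siMESH1+siATF4 replicate 2 (-0.47) or with the median of its probe sets (-0.479), as each change then came under the minimum. All 4 probe sets are of the types that may bind related transcripts. With arrays centred on housekeeping genes it was -0.17 in siMESH1 and -0.29 in siMESH1+siATF4, and no longer called.

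MACROH2A1, which encodes a large variant enriched on silent chromatin, was called lower in siATF4. It read -0.57, -0.56 and -0.35 on the siMESH1+siATF4 arrays, -0.04, -0.10 and 0.13 on the siMESH1 arrays and -0.46, -0.59 and -0.57 on the siATF4 arrays, against 0.03, -0.01 and -0.02 on the siNT arrays. siMESH1 overlapped siNT, and the groups that received siATF4 lay below both. The change in siATF4 against siNT was -0.54 ± 0.0739 (SE, adjusted p = 0.00012) and was called, that in siMESH1+siATF4 was -0.49 ± 0.0739 (SE, adjusted p = 0.00017) and came just under the minimum, and siMESH1 against siATF4 gave 0.54 ± 0.0739 (SE, adjusted p = 8.9e-05). The last call was lost at 0.47 without siMESH1 replicate 3 and at 0.435 with the median of its probe sets, and the siATF4 call at -0.39 with arrays centred on housekeeping genes. Its probe sets opposed each other in siMESH1, at -0.29, -0.19 and 0.48, and were -0.66, -0.68 and -0.29 in siATF4 and -0.73, -0.76 and 0.01 in siMESH1+siATF4. The one that differs is the only one of the 3 not named as possibly binding related transcripts, and with it alone the siATF4 change was -0.29 (adjusted p = 0.091), not called.

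**Figure D4:**
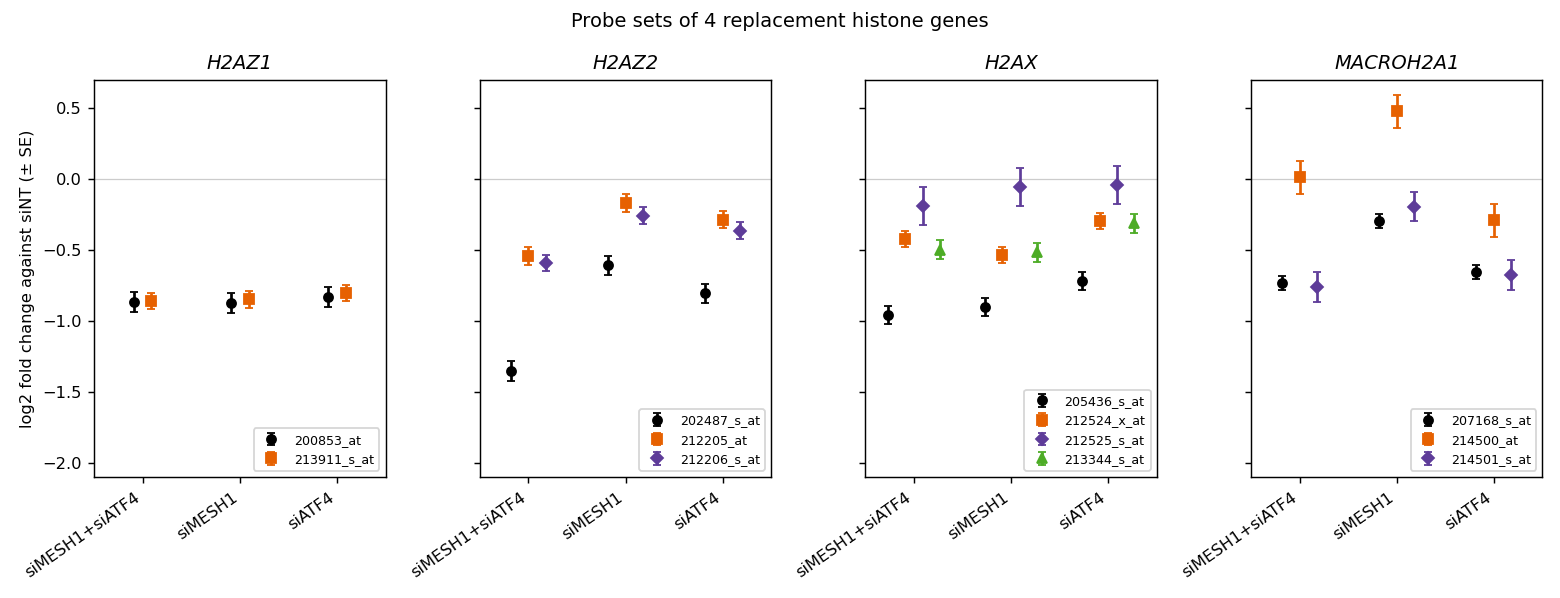
Log2 fold change against siNT of each probe set of H2AZ1, H2AZ2, H2AX and MACROH2A1 in siMESH1+siATF4, siMESH1 and siATF4 cells (points, fitted value; bars, 1 SE). The probe sets of H2AZ1 lie together between -0.87 and -0.80, those of H2AZ2 and H2AX are spread out below 0, and 1 probe set of MACROH2A1 lies at 0.48 in siMESH1 above the others.

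H1-10, a linker histone gene, read -0.30, -0.34 and -0.33 in siMESH1+siATF4 cells, -0.42, -0.33 and -0.64 in siMESH1 cells and -0.48, -0.30 and -0.32 in siATF4 cells, against -0.10, 0.15 and -0.05 in siNT cells. All silenced arrays were below all siNT arrays, with changes of -0.32 ± 0.0864 (SE, adjusted p = 0.01) in siMESH1+siATF4, -0.46 ± 0.0864 (SE, adjusted p = 0.001) in siMESH1 and -0.37 ± 0.0864 (SE, adjusted p = 0.0061) in siATF4, each under the fold minimum. H3-3A, an H3.3 gene, and MACROH2A2, each read here by a single probe set, did not pass the test in any of the 7 comparisons. Probe sets that name H3-3A and H3-3B together are given further on. H3-3A read -0.03, 0.12 and -0.17 in siMESH1+siATF4 cells, 0.02, -0.05 and -0.11 in siMESH1 cells and 0.04, -0.01 and -0.10 in siATF4 cells, against -0.08, 0.08 and 0.001 in siNT cells. MACROH2A2 read 0.09, 0.13 and 0.11 in siMESH1+siATF4 cells, 0.01, 0.09 and 0.26 in siMESH1 cells and -0.01, -0.08 and -0.09 in siATF4 cells, against -0.27, 0.12 and 0.16 in siNT cells.

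Between the silenced groups, the number of histone genes called differed by comparison. In siMESH1+siATF4 against siMESH1, 0 of the 48 genes were called in either direction, beside 3.42% of all genes higher and 2.68% lower, with 11 histone genes at an unadjusted p under 0.05 in limma and 0 called by the methods' own test. In siMESH1+siATF4 against siATF4, 2 replication-type genes (4.88%) were called higher, H2BC12 and H2BC12L, and 0 histone genes lower, beside 0.351% and 1.28% of all genes. In siMESH1 against siATF4, 5 replication-type genes (12.2%) and 1 replacement gene, MACROH2A1, were called higher and 0 lower, beside 3.91% and 4.75% of all genes. The 5 genes in that comparison were H2BC12, H2BC12L, H2AC6, H2BC5 and H2BC21, at 0.92, 0.54, 0.97, 0.53 and 0.69. That comparison shares the siMESH1 arrays with siMESH1 against siNT. The H2BC12L call there was lost at 0.47 without siATF4 replicate 1, and that of H2BC5 at 0.47 without siMESH1 replicate 3 or siATF4 replicate 2. That of H2BC21 held under the methods' own test at its unadjusted threshold. It was lost once a Benjamini-Hochberg adjustment over all genes was added to that test (adjusted p = 0.063). For the interaction, 0 replication-type genes were called higher and 1 lower (H2BC12), and 2 replacement genes were called higher (H2AZ1 and H1-10) and 0 lower, beside 3.46% and 0.853% of all genes. The H1-10 interaction of 0.51 came under the fold minimum without siNT replicate 2 (0.431), siMESH1 replicate 3 (0.417), siMESH1+siATF4 replicate 1 (0.496) or siATF4 replicate 1 (0.451), and was 0.25 with arrays centred on housekeeping genes (adjusted p = 0.068).

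A further 28 probe sets name several histone genes at once and stand outside the 48 genes. Of these, 4 were called in at least 1 comparison with siNT among the clustered families and 1 among those for H3.3. A probe set for 10 H3 genes read 0.89, 1.08 and 0.87 in siMESH1+siATF4 cells, 1.28, 0.94 and 1.15 in siMESH1 cells and 0.64, 0.84 and 0.20 in siATF4 cells, against 0.10, -0.02 and -0.08 in siNT cells. It changed by 0.95 ± 0.139, 1.12 ± 0.139 and 0.56 ± 0.139 (SE, adjusted p = 0.00018, 5.4e-05 and 0.01) in siMESH1+siATF4, siMESH1 and siATF4. A probe set for 14 H4 genes went the other way, at -0.95, -0.88 and -1.04 in siMESH1+siATF4 cells, -0.69, -0.62 and -0.19 in siMESH1 cells and -0.43, -0.83 and -0.77 in siATF4 cells, against 0.004, 0.005 and -0.01 in siNT cells. Its change was -0.96 ± 0.125 in siMESH1+siATF4 (SE, adjusted p = 6.7e-05), -0.50 ± 0.125 in siMESH1 (SE, adjusted p = 0.0089, not called) and -0.68 ± 0.125 in siATF4 (SE, adjusted p = 0.0015). The 8 probe sets for H3.3 ranged from -0.57 to 0.16 in siMESH1, with 1 called lower. They ranged from -0.28 to -0.03 in siATF4 and from -0.37 to -0.07 in siMESH1+siATF4, with 0 called. Several of them passed the adjusted p in limma in both groups and came under the fold minimum. The adjusted p of the lowest was 0.0024 in siATF4 and 0.00037 in siMESH1+siATF4. In siMESH1+siATF4 against siMESH1 they ranged from -0.37 to 0.20 with 0 called, and some on either side of 0 passed the adjusted p. A probe set for 5 H2B genes changed by -0.52 in siMESH1+siATF4, 0.03 in siMESH1 and -0.54 in siATF4 (adjusted p = 0.0037, 0.88 and 0.0039), and one for H2AC18 and H2AC19 by 0.53 in siMESH1+siATF4 (adjusted p = 0.00026). Which gene such a probe set reads cannot be told apart.

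Genes of S phase, of histone loading and of histone mRNA were followed beside the members. The S phase genes, which serve DNA copying, fell: 20 of 20 were called lower in each comparison with siNT. Their medians were -1.51 for siMESH1+siATF4, -1.44 for siMESH1 and -1.10 for siATF4. Of all genes, 5.25%, 5.37% and 4.03% were called lower there. The lists were chosen with earlier results of these data known. RRM2, a subunit of ribonucleotide reductase, changed by -3.43, -3.48 and -1.98 in those groups, and PCNA, the sliding clamp, by -1.52, -1.16 and -1.04 (largest adjusted p of the 6 values, 2.8e-07). CDC45 and GINS2, subunits of the replicative helicase, changed by -2.29, -2.24 and -1.59 and by -2.35, -2.02 and -1.53, and the flap nuclease FEN1 by -1.48, -1.51 and -1.15. The replication-type medians of 0.05, 0.06 and 0.01 stand beside these falls, and the part of the S phase genes in any histone value was not tested.

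Among 23 measured histone chaperones and importers, 10 were called lower in siMESH1+siATF4, 9 in siMESH1 and 9 in siATF4, and 0 higher. Of all genes, 5.25%, 5.37% and 4.03% were called lower in those groups. HJURP, which loads the centromere histone CENP-A, read -2.05, -2.27 and -2.02 in siMESH1+siATF4 cells, -1.94, -1.78 and -1.99 in siMESH1 cells and -1.62, -1.59 and -1.43 in siATF4 cells, against 0.02, 0.03 and -0.05 in siNT cells. Its changes were -2.11 ± 0.0802 (SE, adjusted p = 6.7e-10), -1.90 ± 0.0802 (SE, adjusted p = 2.6e-09) and -1.55 ± 0.0802 (SE, adjusted p = 2.5e-08) in those groups. ASF1B, which hands H3 and H4 to the assembly machinery, changed by -2.04 ± 0.0655 (SE, adjusted p = 2.4e-10) in siMESH1+siATF4, -1.64 ± 0.0655 (SE, adjusted p = 1.7e-09) in siMESH1 and -1.53 ± 0.0655 (SE, adjusted p = 9e-09) in siATF4. CHAF1A, a subunit of the CAF-1 complex that builds nucleosomes behind the fork, changed by -1.52, -1.16 and -1.22. All 3 lay below siNT on every silenced array. MCM2, a helicase subunit that also binds H3 and H4 and is on both this list and that of the S phase genes, changed by -1.32, -1.41 and -0.98. CENPA itself, whose name lies outside the prefixes used for members, changed by -0.61 ± 0.0705 (SE, adjusted p = 1.8e-05) in siMESH1+siATF4, where it was called, and by -0.45 ± 0.0705 (SE, adjusted p = 0.00028) in siMESH1 and -0.36 ± 0.0705 (SE, adjusted p = 0.0018) in siATF4. The other measured histone genes outside the prefixes, H2AJ, H2AP and H3-4, were not called. H2AJ changed by 0.30, -0.15 and 0.22 in siMESH1+siATF4, siMESH1 and siATF4, H2AP by 0.28, 0.35 and 0.37, and H3-4 by -0.08, -0.02 and -0.03.

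Of the 14 measured genes for the transcription, processing and decay of histone mRNA, 2 were called lower in siMESH1+siATF4, 1 in siMESH1 and 1 in siATF4, and 0 higher. Of all genes, 5.25%, 5.37% and 4.03% were called lower, which counts this small cannot be told from. SLBP, which binds the stem-loop, read -0.53, -0.55 and -0.50 on the siMESH1+siATF4 arrays, -0.51, -0.54 and -0.47 on the siMESH1 arrays and -0.48, -0.51 and -0.48 on the siATF4 arrays, against 0.03, -0.05 and 0.02 on the siNT arrays. Its changes of -0.53 ± 0.0446 (SE, adjusted p = 1.1e-06) and -0.51 ± 0.0446 (SE, adjusted p = 2e-06) were called, and -0.49 ± 0.0446 (SE, adjusted p = 3.4e-06) in siATF4 was just short of the minimum. NPAT, the coactivator of the histone clusters, changed by -0.39, -0.37 and -0.27 in siMESH1+siATF4, siMESH1 and siATF4 (adjusted p = 0.0001, 0.0002 and 0.0024), while HINFP, a factor for H4 gene promoters, changed by 0.49, 0.40 and 0.21 (adjusted p = 4.4e-06, 2.7e-05 and 0.0045). None of these reached the minimum. CSTF2, a subunit of the cleavage stimulation factor, changed by -0.51 ± 0.0582 (SE, adjusted p = 1.7e-05) in siMESH1+siATF4 and was called. The gene called in siATF4 was CASP8AP2 (FLASH), a histone mRNA processing factor named here after its value was seen, at -0.55 ± 0.0773 (SE, adjusted p = 0.00016). Of 11 measured genes of the complexes that exchange H2A.Z, 0 were called against siNT in limma (6, 5 and 6 at an unadjusted p under 0.05 in siMESH1+siATF4, siMESH1 and siATF4), with medians of -0.09 in siMESH1+siATF4, 0.11 in siMESH1 and -0.12 in siATF4. In siMESH1 the smallest adjusted p were those of the ATPase RUVBL2 at -0.24 ± 0.0472 (SE, adjusted p = 0.0014), ACTR6 at 0.31 ± 0.0681 (SE, adjusted p = 0.0035), VPS72 at 0.30 ± 0.0712 (SE, adjusted p = 0.0056) and ZNHIT1 at 0.18 ± 0.0437 (SE, adjusted p = 0.0062), so members lay on both sides of 0. In siATF4 they were those of the ATPase RUVBL1 at -0.35 ± 0.0583 (SE, adjusted p = 0.00052) and the actin-related ACTL6A at -0.46 ± 0.106 (SE, adjusted p = 0.0051).

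Scaling bears on these counts. The 11 measured housekeeping genes averaged -0.22 on the siMESH1+siATF4 arrays, -0.33 on the siMESH1 arrays and -0.15 on the siATF4 arrays, against a siNT mean of 0 by construction. This reference itself changed: TFRC, HPRT1 and PGK1 were called lower in siMESH1 (-1.17, -0.66 and -0.53) and 0 higher. The median change of the 11 genes there was -0.21. Centring the arrays on them moved the median of all genes to 0.23 in siMESH1+siATF4, 0.36 in siMESH1 and 0.17 in siATF4, and the calls over all genes in siMESH1 to 2526 higher and 291 lower, beside 337 and 643 as deposited. Replication-type genes called higher were then 6 in siMESH1+siATF4, 10 in siMESH1 and 4 in siATF4, and replacement genes called lower were 2, 1 and 1. H2BC12 kept its rises (1.58, 1.79 and 0.69) and H2AZ1 its falls (-0.64, -0.53 and -0.67). Probe set choice bears on them too: without those that can bind related transcripts, H2BC12 was the only replication-type gene still called higher in siMESH1 (adjusted p = 3.4e-09), because H2AC6, H2BC12L, H2BC5 and H2BC21 have no other probe set.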

How the data were processed

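The authors amplified total RNA of 12 RCC4 cultures, hybridised it to Affymetrix arrays and normalised the scans by RMA in Affymetrix Expression Console (no version was found in the sources). From each log2 signal the authors then took away the siNT mean of its probe set, and that mean lay within 0.00012 of 0 in the deposited table. Groups came from the sample titles, and 0 columns were left without a sample.

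Of 22277 probe sets, 19064 with exactly 1 gene symbol in the platform table were used, 19052 of them matched to RefSeq by Entrez identifier, and probe sets of a gene were averaged. All 12 arrays entered a single limma 3.58.1 fit in R 4.3.3 (lmFit, eBayes) with a mean per group, 8 residual and 4.32 prior degrees of freedom, and no block. The interaction is the siMESH1 change in ATF4-silenced cells minus that in siNT cells. No filter on low signal was possible. The fit was tested on simulated data with known changes. With 3 arrays a group, their number sets the precision.

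Every member called in at least 1 comparison and every replacement member was named, as were, of each other list except both marker lists and the housekeeping genes, up to 4 genes with the smallest adjusted p in siMESH1 against siNT and up to 2 in siATF4 against siNT, and HDDC3, ATF4, SLBP, NPAT, CENPA, RRM2 and PCNA where measured. The marker and housekeeping lists are given by counts, ranges, means or called genes. Other members were named after their values were seen. Members and lists were chosen with earlier results of these data known. Alternatives covered scaling, probe sets, the replicate block, moderation, the fit's samples, the methods' test, the fold minimum, a filter on spread, and leaving out each array.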

Additional observations from a re-analysis of the deposited data

Results flagged for a closer look

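For 3 histone genes the effect of MESH1 silencing differed between ATF4-silenced cells and siNT cells, by the interaction term in limma. Of all genes, 3.46% were called higher and 0.853% lower for this term. It was called higher for 18 of 20 S phase genes (median 1.05) and 9 of 23 histone chaperones and importers, and lower for 0 of either. A positive interaction was thus not particular to histone genes. H2AZ1 changed by -0.05 when MESH1 was silenced in siATF4 cells and by -0.86 when it was silenced in siNT cells, a difference of 0.81 (adjusted p = 4.5e-05). H2BC12 changed by 0.81 in siATF4 cells and by 1.46 in siNT cells, a difference of -0.65 (adjusted p = 0.00029). H1-10 changed by 0.04 in siATF4 cells and by -0.46 in siNT cells, a difference of 0.51 (adjusted p = 0.018). The H1-10 difference came under the fold minimum without siNT replicate 2 (0.43), siMESH1 replicate 3 (0.42), siMESH1+siATF4 replicate 1 (0.50) or siATF4 replicate 1 (0.45), while those of H2AZ1 and H2BC12 stayed called when any array was left out.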

How the results depend on the processing

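Of 27 calls of a histone gene in a comparison, 0 changed sign under 24 alternatives and 2 kept their call under all of them. Counts of replication-type genes called higher in siMESH1, siATF4 and siMESH1+siATF4 against siNT were 5, 1 and 3. They were 10, 4 and 6 with arrays centred on housekeeping genes, 1, 0 and 1 with a fold minimum of 1, and 4 in siATF4 and 6 in siMESH1+siATF4 with no fold minimum. Counts of replacement genes called lower there were 2, 2 and 3, and became 4, 5 and 5 with no fold minimum, 0, 0 and 0 with a fold minimum of 1, and 1 in siMESH1 and 1 in siATF4 with housekeeping centring. Without probe sets that may bind related transcripts, replication-type genes called higher were 1 in siMESH1, 1 in siMESH1+siATF4, 1 in siMESH1+siATF4 against siATF4 and 1 in siMESH1 against siATF4, and replacement genes called lower were 1 in siMESH1 and 1 in siATF4. In siMESH1, H2AX had no probe set left, and in siATF4 MACROH2A1 was still measured and came to -0.289 (adjusted p = 0.091).

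With no fold minimum, 1 replication-type gene was lower in siATF4 and 1 in siMESH1+siATF4 against siNT. In siMESH1+siATF4 against siMESH1, 1 replication-type gene was higher, 4 were lower and 2 replacement genes were lower. In siMESH1+siATF4 against siATF4, 4 replication-type genes were higher and 1 replacement gene lower. In siMESH1 against siATF4, 2 replication-type genes were lower, 2 replacement genes higher and 1 lower, and for the interaction 2 replication-type genes were lower. With a fold minimum of 1, the replication-type counts were 0 in siMESH1+siATF4 against siATF4 and 0 in siMESH1 against siATF4, the replacement gene higher there became 0, and the interaction counts were 0 and 0. Housekeeping centring gave 2 replication-type and 2 replacement genes lower in siMESH1+siATF4 against siMESH1, and for the interaction 9 replication-type genes lower and 1 replacement gene higher. The median of the probe sets gave 1 replacement gene lower in siMESH1+siATF4 against siMESH1 and 0 higher in siMESH1 against siATF4, and without probe sets that may bind related transcripts the interaction left 1 replacement gene higher. The cause was not tested.

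With housekeeping centring the replication-type medians were 0.39, 0.16, 0.28 and -0.14 and the replacement medians -0.0127, -0.22, -0.27 and -0.13 in siMESH1, siATF4, siMESH1+siATF4 against siNT and siMESH1+siATF4 against siMESH1. The replacement median in siMESH1 was -0.26 with the median of the probe sets, -0.0225 without probe sets that may bind related transcripts and -0.40 without the genes of lowest spread. Without probe sets that may bind related transcripts it was -0.26 in siMESH1+siATF4 against siNT and -0.19 against siMESH1.

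Leaving out an array in turn gave 1 to 3 replacement genes lower in siMESH1 (3 without siMESH1 replicate 2, 1 without siNT replicate 3 or siMESH1 replicate 3), 1 to 2 replication-type genes higher in siATF4 (2 without siNT replicate 1 or 2), 0 to 1 replication-type and 0 to 1 replacement genes lower in siMESH1+siATF4 against siMESH1, 0 to 1 replacement genes higher in siMESH1 against siATF4, and 1 to 2 replication-type genes lower and 1 to 2 replacement genes higher for the interaction. In the same runs, replication-type genes higher against siNT ranged from 4 to 6 in siMESH1 and from 2 to 3 in siMESH1+siATF4. Replacement genes lower ranged from 2 to 4 in siMESH1+siATF4 and from 2 to 3 in siATF4. Against siATF4, replication-type genes higher ranged from 4 to 6 in siMESH1 and from 2 to 3 in siMESH1+siATF4. The replicate number as a block changed none of the 28 counts, with 5 replication-type genes higher in siMESH1. Same-numbered arrays did not deviate together (median correlation 0.0147, from -0.191 to 0.0951 over 18 pairs, 2 of 12 arrays nearest to their own number). Other pairs had a median of -0.00398 and reached 0.243. Such a check cannot exclude a shared batch behind the numbers. The methods' test at its unadjusted threshold gave 5 replication-type genes higher and 2 replacement genes lower in siMESH1, and 4 and 2 after Benjamini-Hochberg adjustment.
The interaction was not run with only the groups compared or with the methods' test, which takes a pair of groups, and a filter on low values was not run because the values are differences.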
